A study of Mus musculus with 6 samples.

Results

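Immunoglobulin V segments were counted in total RNA of regulatory T cells (Treg) sorted from the spleen of mice with a bone marrow graft. Members were the rows of the deposited count table named as heavy chain (Ighv), kappa (Igkv) or lambda (Iglv) V segments and holding at least 10 counts summed over the 6 libraries. Of 173 rows with such names, 95 met the minimum, among 29199 genes in the table. They comprised 54 heavy, 38 kappa and 3 lambda segments. The counts themselves chose the members, so their levels are given as a description. Just inside the minimum, Ighv5-2 and Igkv8-30 held 10 counts each, and 6 rows in all held 10 to 12. Just outside it, 14 rows held 8 or 9 counts, for example Igkv1-88 with 8. The 78 rows under the minimum held 339 counts together.

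Recipients were lethally irradiated C57BL/6 J (B6) mice or CD45.1+ B6 mice, and were given B6 and semi-allogeneic B6D2F1 bone marrow depleted of T and NK cells. All received expanded Treg that were WT at Hp1a, from B6 Foxp3-Thy1.1 reporter mice and cultured with IL-2, TGFb and anti-CD3/CD28 beads. The groups differed in the naive conventional CD4 T cells (Tconv) injected with the Treg, which were either WT (Hp1a+/+ littermates) or HP1α KO (Hp1a-/-, a floxed allele deleted by CMV-cre in all tissues, on a mixed background). Treg were sorted 3 weeks later as CD4+ cells positive for CD45.2, Thy1.1 and H-2Kb and negative for CD45.1 and H-2Kd, a gate that held no B cell marker. The libraries of Treg with WT Tconv are called WT1, WT2 and WT3 by their replicate number, and those of Treg with HP1α KO Tconv KO1, KO2 and KO3. The name KO thus refers to the Tconv, not to the Treg sequenced. Per the methods of the study, sequencing used male mice and animals were 6 to 12 weeks old. The labels did not say whether replicates came from separate animals, so p-values measure the spread between these libraries.

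Each B cell joins 1 V segment to D and J segments at the heavy chain locus and 1 V to 1 J at a light chain locus, and its progeny keep the joined gene. Plasma cells, the antibody-secreting end of the lineage, transcribe these genes at very high levels, so that few cells can give many V transcripts. T cells join T cell receptor V segments instead. V transcripts of a few clones therefore fall on few segments, whereas those of many B cells spread over the locus. A count per segment does not identify a clone, because unrelated clones can use the same V segment.

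To show which germline segments are concerned, the end of each V exon and the recombination signal after it are printed for the segment that led the heavy or kappa counts of each library. This set was chosen after the counts had been seen. Sequences are from the GRCm39 assembly, read 5′ to 3′ on the strand of the gene, with GENCODE M39 gene models. The lower case run of 45 bases at the start is the end of the V exon. Capitals mark the 7 bases after it, where the RAG recombinase cuts (heptamer, searched as CACAGTG), and the closest match to the nonamer ACAAAAACC downstream. For the heavy chain the segments led in WT1, WT2, WT3, KO1, KO2 and KO3, in this order, at chr12:114751954-114752036, chr12:114502077-114502159, chr12:115963610-115963692, chr12:114709855-114709937, chr12:113699692-113699775 and chr12:115031141-115031224, all on the minus strand.
Ighv1-26: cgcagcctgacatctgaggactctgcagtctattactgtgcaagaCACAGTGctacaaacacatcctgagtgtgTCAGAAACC
Ighv1-7: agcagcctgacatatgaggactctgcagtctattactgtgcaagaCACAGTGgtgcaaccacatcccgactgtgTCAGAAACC
Ighv1-85: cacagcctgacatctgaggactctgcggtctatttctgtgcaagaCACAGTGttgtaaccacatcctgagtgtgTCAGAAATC
Ighv1-22: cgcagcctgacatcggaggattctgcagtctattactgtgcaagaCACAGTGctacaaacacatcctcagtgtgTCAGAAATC
Ighv5-9-1: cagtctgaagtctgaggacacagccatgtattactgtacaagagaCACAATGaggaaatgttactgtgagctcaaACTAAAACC
Ighv8-5: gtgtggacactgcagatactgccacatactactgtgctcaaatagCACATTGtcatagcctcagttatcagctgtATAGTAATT

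The kappa segments that led the same libraries, in the same order, lie at chr6:67873582-67873654 (plus strand), chr6:69415174-69415246 (minus), chr6:70495789-70495861 (plus), chr6:69584231-69584303 (minus), chr6:68233809-68233881 (plus) and chr6:68098767-68098839 (plus).
Igkv14-126: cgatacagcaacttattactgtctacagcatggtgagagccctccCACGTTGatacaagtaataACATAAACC
Igkv4-59: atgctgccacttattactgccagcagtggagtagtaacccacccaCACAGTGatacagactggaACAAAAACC
Igkv3-12: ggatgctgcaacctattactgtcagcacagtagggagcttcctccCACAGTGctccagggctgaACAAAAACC
Igkv4-55: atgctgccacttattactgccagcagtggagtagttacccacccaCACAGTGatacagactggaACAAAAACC
Igkv14-111: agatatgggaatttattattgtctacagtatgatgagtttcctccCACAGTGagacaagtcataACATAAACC
Igkv1-117: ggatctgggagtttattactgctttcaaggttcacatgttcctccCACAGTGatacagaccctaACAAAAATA

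Over all members, the exact heptamer CACAGTG followed the annotated end in 75 of 95 (78.9%), against 94 of 122 (77.0%) of the other annotated V genes that are not pseudogenes. The spacer to the closest nonamer was of the long kind (near 23 bases) in all 54 heavy and 3 lambda members and of the short kind (near 12) in all 38 kappa members. The nonamer was within 2 mismatches in 81 members. In Ighv8-5 the closest nonamer had 5 mismatches and the heptamer 1. Such matches are a description of the letters and not a test of function. Of the 95 members, 1 (Ighv3-2) was annotated as a pseudogene, whereas 129 of the 251 other annotated V genes were.

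V promoters carry an octamer that the POU factors Oct-1 and Oct-2 bind. The 120 bases before the annotated start are printed for the heavy, kappa and lambda segments with the highest mean level, with the octamer (ATGCAAAT or its reverse complement ATTTGCAT, both strands searched) in capitals. They lie at chr12:115964082-115964201 (minus strand), chr6:70495114-70495233 (plus) and chr16:18904251-18904370 (minus).
Ighv1-85: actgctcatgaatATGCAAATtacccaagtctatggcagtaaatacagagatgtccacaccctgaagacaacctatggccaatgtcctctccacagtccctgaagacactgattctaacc
Igkv3-12: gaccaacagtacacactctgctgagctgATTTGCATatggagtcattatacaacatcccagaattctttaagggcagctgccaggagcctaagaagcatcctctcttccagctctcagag
Iglv1: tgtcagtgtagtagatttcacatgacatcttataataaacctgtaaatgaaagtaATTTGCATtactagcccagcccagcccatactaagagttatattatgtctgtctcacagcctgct

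Within 250 bases before the annotated start, the octamer was found in 76 of 95 members (80.0%), against 330 of 21757 protein-coding genes (1.52%). Of the other annotated V genes that are not pseudogenes, 90 of 122 (73.8%) held it. The octamer of the heavy members lay a median of 106 bases before the start, that of the kappa members 86 bases. On the strand of the gene it read ATGCAAAT in all 46 heavy members that held it, and ATTTGCAT in the 27 kappa and 3 lambda members. Ighv1-26, Ighv1-7 and Igkv1-117, each leading in a library, had no exact octamer in this window.

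**Figure D1:**
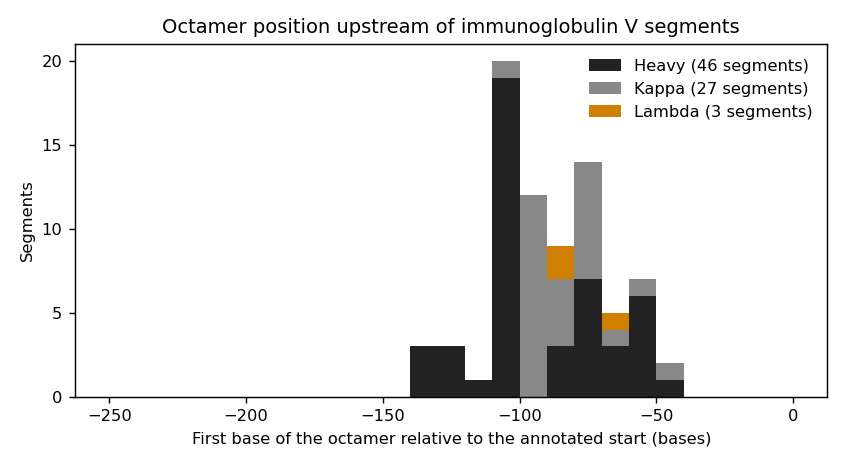
Position of the octamer in the 250 bases before the annotated start (x axis, bases, 0 at the start) for the 76 members that hold it, as stacked counts of heavy, kappa and lambda segments in bins of 10 bases. All positions lie between 136 and 44 bases before the start.

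One library stood apart. WT3 held 73.3% of the 10674 V counts of the members. Its erythroid markers (7 of 7 genes, hemoglobins included) summed to 5567 CPM, against 372 to 691 CPM in the other libraries, and its neutrophil markers (8 of 8 highest in WT3) to 1820 CPM, against 41.0 to 226 CPM. Macrophage markers (6 of 6) summed to 177 CPM, against 12.8 to 47.4 CPM. Most of this sum was Lyz2, at 165 CPM in WT3 and 7.21 to 39.0 CPM in the other libraries. The Treg and T cell markers, which include Foxp3, Cd4 and Trac, summed to between 4728 and 5466 CPM in all 6 libraries. CPM is the count scaled to a library total of 1000000, and the libraries held between 87421755 and 119078882 counts. Totals, evenness, leading shares, overlap and dispersion are therefore given with and without WT3, and the part of other cell types in them was not tested.

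V transcripts were rare in every library and their total varied between libraries of 1 group by more than between groups. The total was 679, 204 and 7823 counts in WT1, WT2 and WT3, and 1348, 167 and 453 counts in KO1, KO2 and KO3. As CPM these were 7.05, 2.07 and 65.7, and 14.8, 1.72 and 5.18. WT3 was the highest, KO1 the next, and WT2 and KO2 the lowest, so that the groups overlapped. The WT Tconv libraries averaged 24.9 ± 35.4 CPM and the HP1α KO Tconv libraries 7.25 ± 6.80 CPM (both SD, n = 3), a difference of -17.7 CPM that was smaller than the SD of the WT Tconv group. Without WT3 the WT Tconv mean was 4.56 ± 3.52 CPM (SD, n = 2) and the difference changed sign, to 2.69 CPM. No p-value was computed for this sum, whose members were chosen by their counts. In bulk RNA, fewer cells of a type and less RNA per cell cannot be told apart.

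Both large loci followed the same order of libraries at the top. Heavy chain V segments gave 247, 136 and 3646 counts with WT Tconv and 610, 60 and 209 counts with HP1α KO Tconv. Kappa segments gave 410, 54 and 3322 counts, and 633, 86 and 219 counts. Heavy counts were the higher in WT2 (1.38 against 0.548 CPM) and WT3, and kappa counts in the other 4 libraries. Lambda segments, the minor light chain of the mouse, gave 22, 14 and 855 counts, and 105, 21 and 25 counts. All 3 loci were highest in WT3 and next in KO1.

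**Figure D2:**
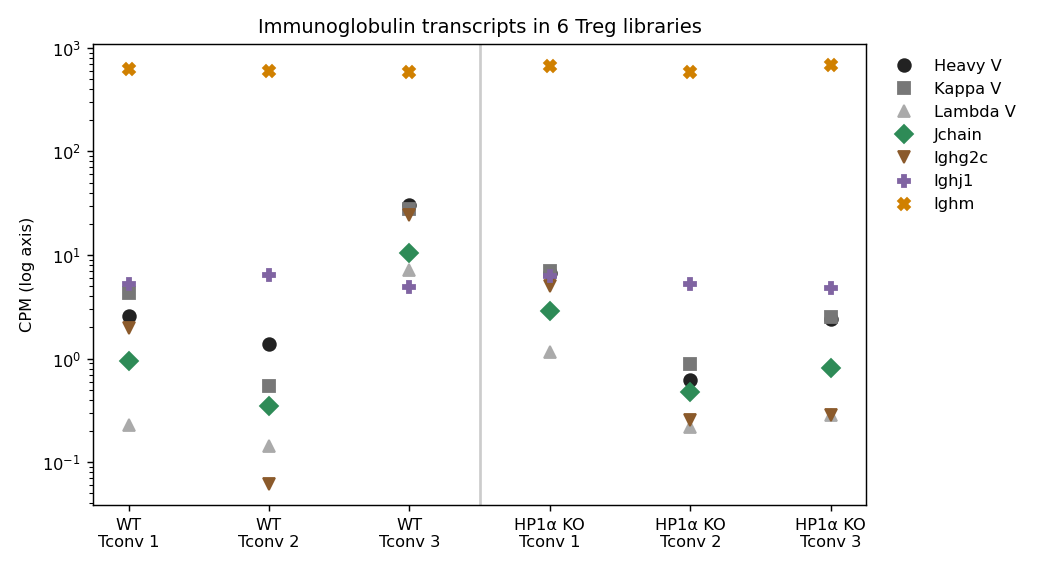
CPM (log axis) of summed heavy, kappa and lambda V segments and of Jchain, Ighg2c, Ighj1 and Ighm in each of the 6 libraries (WT Tconv 1 to 3 and HP1α KO Tconv 1 to 3; each point is 1 library). V segments, Jchain and Ighg2c were highest in WT Tconv 3, whereas Ighm stayed between 580 and 684 CPM.

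Each library was led by a different heavy segment. In WT1 it was Ighv1-26, with 83 of 247 counts (33.6%, 95% Wilson interval 28.0 to 39.7). In WT2 it was Ighv1-7, with 51 of 136 (37.5%, 29.8 to 45.9). In WT3 it was Ighv1-85, with 521 of 3646 (14.3%, 13.2 to 15.5). The leading share was thus lowest in the library with the most V counts.

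With HP1α KO Tconv, KO1 was led by Ighv1-22, with 119 of 610 counts (19.5%, 16.6 to 22.8). KO2 was led by Ighv5-9-1, with 10 of 60 (16.7%, 9.31 to 28.0), which rests on few counts. KO3 was led by Ighv8-5, with 116 of 209 (55.5%, 48.7 to 62.1), the highest heavy share of the 6 libraries. The intervals take in counting error alone, because no molecular identifiers were used and reads of 1 molecule may be counted more than once.

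Most of the leading heavy segments had few or no counts elsewhere, save for Ighv1-26 and Ighv8-5 in WT3. Ighv1-85 had 521 counts in WT3 and 0 in the other 5 libraries. Ighv1-26, which led WT1 with 83 counts, had 139 in WT3 and at most 5 elsewhere. As a share of the heavy counts it was close to equal in WT3 (3.81%) and WT2 (3.68%). Ighv1-7 had 51 counts in WT2, 4 in WT3 and 0 elsewhere. Ighv1-22 had 119 counts in KO1, 21 in WT3 and 0 elsewhere. A value of 0 allows up to 3 counts in that library. Ighv8-5 led KO3 with 116 counts and was also found in WT3, with 105 counts that made up only 2.88% of the heavy counts there. Ighv1-75 gave 242 counts in WT3 and 118 in KO1, where it trailed the leading Ighv1-22 by 1 count, and 0 in the other libraries.

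Kappa segments behaved alike, with 6 different leaders. In WT1 the leader was Igkv14-126, with 108 of 410 counts (26.3%). In WT2 it was Igkv4-59, with 28 of 54 (51.9%), and in WT3 Igkv3-12, with 686 of 3322 (20.7%). KO1 was led by Igkv4-55, with 146 of 633 (23.1%), and KO2 by Igkv14-111, with 23 of 86 (26.7%). KO3 was led by Igkv1-117, with 122 of 219 counts (55.7%, 49.1 to 62.1). KO3 was thus the library in which 1 heavy and 1 kappa segment each made up over 50% of their locus, and these had close to equal counts, 116 and 122.

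Other segments were high in 1 library as well. In WT1, Igkv4-57 gave 90 counts and Ighv6-3 gave 44, against at most 4 in any other library, whereas Igkv10-96 gave 83 there and 27 in WT3. In KO1, Igkv8-16 gave 102 counts and Ighv1-39 gave 71, again against at most 4 elsewhere. In WT3, Igkv3-7 gave 306 counts, Ighv9-3 gave 299, Igkv17-121 gave 266 and Igkv8-24 gave 242, with at most 11 counts of any of them in another library. The other libraries had far fewer V counts, and as a share of the kappa counts Igkv3-7 was at 12.8% in KO2 against 9.21% in WT3, and Igkv17-121 at 5.81% against 8.01%. Igkv14-111 was the exception among the heavy and kappa leaders, being found in every library. It had 14, 3 and 47 counts with WT Tconv and 19, 23 and 45 with HP1α KO Tconv.

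**Figure D3:**
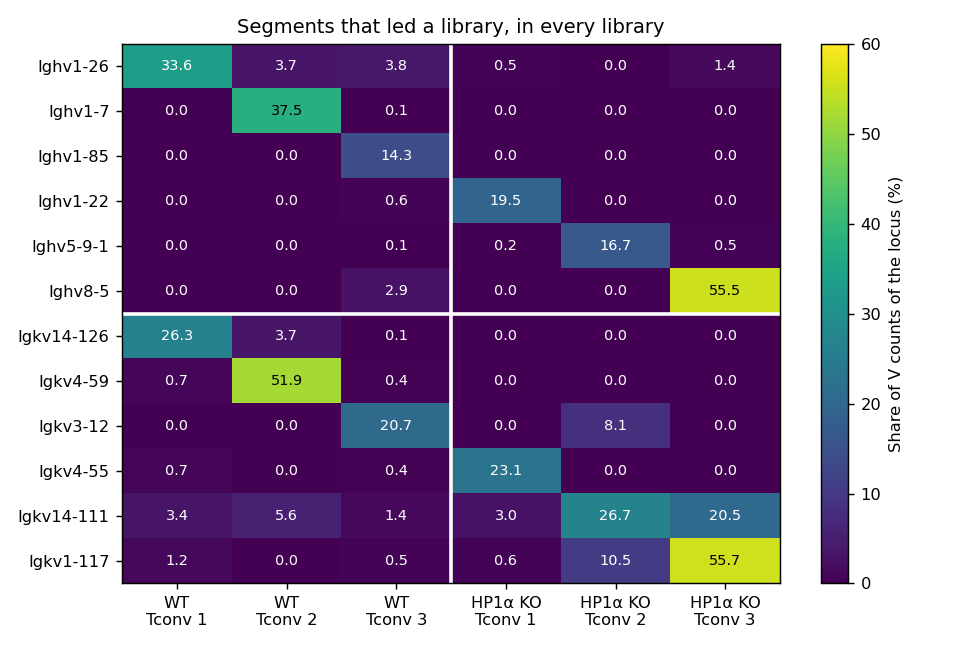
Share of the V counts of the locus (%, colour scale and printed numbers) for the 6 heavy and 6 kappa segments (rows) that led a library, in all 6 libraries (columns). Most rows are high in 1 library, up to 55.5% for Ighv8-5 and 55.7% for Igkv1-117 in HP1α KO Tconv 3, and Igkv14-111 is above 0 in every column.

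Lambda usage rested on Iglv1 and Iglv2, the latter closest in sequence to the former (96.9% identity). Iglv1 led WT1 (19 of 22 counts), WT3 (665 of 855), KO2 (21 of 21) and KO3 (16 of 25), whereas Iglv2 led WT2 (8 of 14) and KO1 (88 of 105). The lambda constant gene Iglc1 had 19, 0 and 743 counts with WT Tconv and 12, 63 and 14 with HP1α KO Tconv, and Iglc2 had 18, 0 and 312, and 139, 17 and 23. Iglc3 had 4, 10 and 125 counts, and 17, 3 and 27. The highest was Iglc2 in KO1, which Iglv2 led, and Iglc3 in KO3 and WT2, which Iglv1 and Iglv2 led. Iglv3 reached at most 27 counts, in WT3.

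Evenness was computed per locus, as the Shannon entropy of segment usage over its maximum for all members of the locus (0 where 1 segment holds all counts, 1 where all hold the same). For heavy segments it was 0.540, 0.506 and 0.832 in WT1, WT2 and WT3, and 0.604, 0.613 and 0.452 in KO1, KO2 and KO3. The matching effective number of segments was 8.61, 7.51 and 27.7, and 11.1, 11.5 and 6.07. For kappa segments evenness was 0.552, 0.483 and 0.807, and 0.658, 0.642 and 0.437. WT3 was the most even and KO3 the least even library at both loci.

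Group means of evenness over all members differed by less than their spread. The heavy mean was 0.626 ± 0.180 (SD, n = 3) with WT Tconv and 0.556 ± 0.0905 (SD, n = 3) with HP1α KO Tconv, and the kappa means were 0.614 ± 0.170 and 0.579 ± 0.124. Without WT3 the differences changed sign, from -0.0694 to 0.0338 for heavy and from -0.0349 to 0.0615 for kappa segments. With members of at least 50 counts, the heavy difference was -0.204, larger than its SD of 0.178, and the kappa difference -0.103. The share of the leading kappa segment was 32.9 ± 16.6% with WT Tconv and 35.2 ± 17.9% with HP1α KO Tconv (SD, n = 3 each). This difference of 2.22 percentage points was -3.92 without WT3 and -1.08 without WT1. The share of the leading heavy segment differed by 2.09 percentage points, and by -4.99 without WT3. With members of at least 50 counts the differences were 15.8 for kappa, larger than its SD of 14.6, and 13.6 for heavy segments, and by families they were -2.27 and -7.28.

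Evenness depends on depth, so the heavy counts of each library were thinned to 60 and the kappa counts to 54, the lowest totals. Heavy evenness was then 0.489, 0.475 and 0.747 with WT Tconv and 0.563, 0.613 and 0.422 with HP1α KO Tconv. Kappa evenness was 0.512, 0.483 and 0.723, and 0.611, 0.624 and 0.393. WT3 remained the most even and KO3 the least even library at both loci at equal counts.

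**Figure D4:**
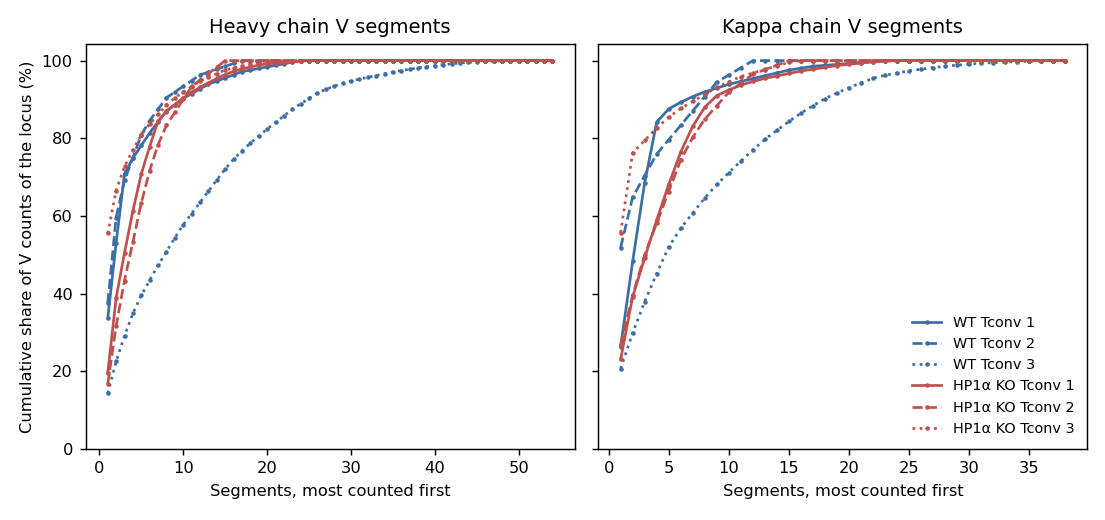
Cumulative share of the V counts of a locus (y axis, %) against the number of segments taken from the most counted down (x axis), for the heavy (left) and kappa (right) members, 1 line per library (blue, WT Tconv; red, HP1α KO Tconv). The line of WT Tconv 3 rises most slowly, from 14.3% for the first heavy and 20.7% for the first kappa segment, and that of HP1α KO Tconv 3 starts at 55.5% and 55.7%.

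Members differed in the number of libraries they were found in. Of the 95 members, 7 had counts in all 6 libraries, 12 in a single library, and 24 in each of 2 and 3 libraries. WT3 had counts for 90 members, and the others for 31 to 52. These counts move with the V total of a library, of which WT3 held most. T cell receptor alpha and beta V rows, the like measure from the same libraries, are far deeper, with 38708 to 41820 counts per library for alpha and 57975 to 64071 for beta.

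The Morisita index, which is close to 1 for libraries that draw on the same usage and 0 for those that share no segment, and is corrected for depth, was compared over the 15 pairs of libraries. Its median was 0.112 (0.0116 to 0.338) for heavy and 0.0599 (0.0293 to 0.483) for kappa segments. Receptor V segments of the T cells in the same libraries gave 0.976 (0.966 to 0.989) for beta and 0.884 (0.854 to 0.921) for alpha, ranges that did not overlap with those of the heavy and kappa segments. Pairs share libraries, so no test was made. Within groups the heavy median was 0.103 (6 pairs) and between groups 0.112 (9 pairs). Without WT3 the medians were 0.0861 for heavy and 0.0739 for kappa segments. Over members of at least 50 counts they were 0.104 for heavy and 0.179 for kappa segments. For lambda, with 3 segments, the median was 0.857.

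**Figure D5:**
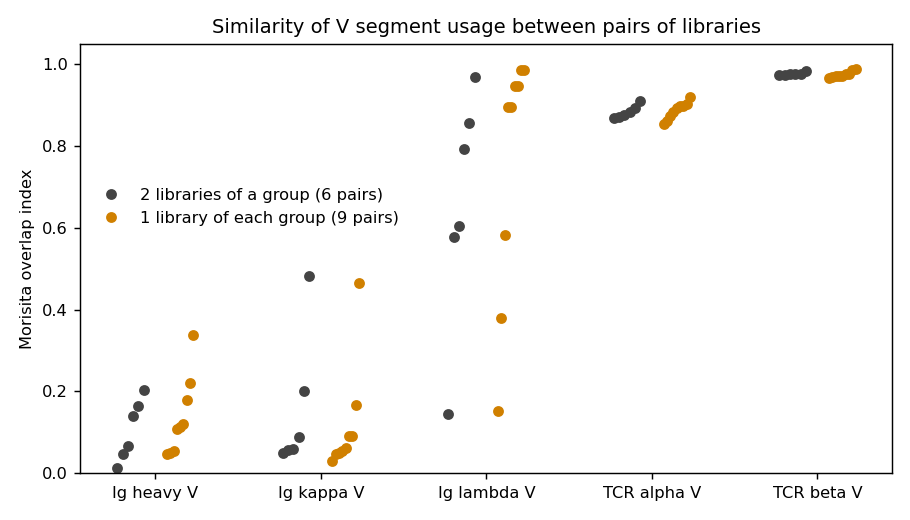
Morisita overlap index (y axis, 0 for no shared segment and about 1 for like usage) between pairs of libraries for immunoglobulin and T cell receptor V segments, 1 point per pair, split into pairs within a group (dark) and between groups (orange). Heavy values reach 0.338 and kappa values 0.483, whereas alpha and beta receptor values start at 0.854 and 0.966.

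Members were also grouped by V family, the number after Ighv or Igkv. Ighv1, the largest heavy family with 27 members, held 70.0, 78.7 and 54.1% of heavy counts in WT1, WT2 and WT3, and 83.3, 41.7 and 23.4% in KO1, KO2 and KO3. KO3 differed through Ighv8 (56.0%), which there was almost all Ighv8-5. With families in place of segments the median Morisita index rose to 0.796 for heavy and 0.336 for kappa. How far pooling into fewer classes moves this index by itself was not tested. Near-identical copies limit the reading by segment, since the authors' counting shares ambiguous reads by a model. Another annotated V gene was at least 95% identical over 80% of the length for 52 of 95 members, and at least 98% identical for 5. The sequences compared joined all annotated exons of a gene, so that bases of overlapping exons were repeated. Near copies of such members could be missed, and these counts may be too low. For example, Igkv10-95 was matched to Igkv9-124 at 79.9%, although Igkv10-94 was matched to Igkv10-95 at 97.2%.

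The question of the study's design, whether the Treg differ with the genotype of the Tconv, was asked of single members with the quasi-likelihood test of edgeR. Only 4 of 95 members passed its filter on low counts, and 0 of them had an adjusted p under 0.05. Among all 18321 genes tested, 0 were called (0%), while 2656 (14.5%) had an unadjusted p under 0.05, as did 0 of the 4 members. The groups overlapped in all 4, where 23.9% of tested genes had groups that did not overlap. DESeq2 called 526 of 12097 genes (4.35%), and gave an adjusted p to 0 members. At an unadjusted p under 0.05 it had 11 of 59 members, all lower with HP1α KO Tconv, where 5.3% of all genes with a p were lower at that level. Nothing is read from this direction, since members were chosen by counts of which WT3 held most. Of these 11 members, 8 had their highest level in WT3, 2 in WT1 and 1 in WT2. With edgeR and no filter, 6 of 95 members had such a p, all lower, as did 9.87% of all genes in either direction. With 1 library left out, members were lower at such a p in 4 of 20 without WT2 (11% of all genes in either direction), 2 of 11 without KO1 (12.5%), 1 of 20 without KO2 (16.4%) and 1 of 19 without KO3 (10.4%), and in 0 of 18 without WT1 (10.6%). Without WT3 it was 1 of 3, which was higher (11.2%). With the replicate number as a block, 0 of the 4 members and 0.00546% of all genes had an adjusted p under 0.05.

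The 4 tested members were Iglv1, Ighv1-54, Ighv1-82 and Igkv14-111. Iglv1 had 19, 6 and 665 counts with WT Tconv and 13, 21 and 16 with HP1α KO Tconv, and the log2 fold change of HP1α KO over WT Tconv was -3.47 (SE 1.87, adjusted p = 0.483 by edgeR). This value rested on WT3, without which it was 0.45, and it was -1.38 with the replicate number as a block. Ighv1-54 had 8, 30 and 18 counts, and 7, 9 and 23, with a log2 fold change of -0.36 (SE 0.69, edgeR adjusted p = 0.837) that was 0.26 without WT2. Igkv14-111 gave 0.69 (SE 0.79, edgeR adjusted p = 0.723), and 1.82 without WT3, 0.21 without WT2 and 0.17 without KO3. Ighv1-82, with 10, 0 and 74 counts, and 43, 0 and 0, gave -0.66 (SE 2.05, edgeR adjusted p = 0.908). This rested on KO1. Without it the HP1α KO Tconv counts were all 0, and the fitted value of -7.63 then depends on the prior count and is no bound. It was -0.07 without KO2 and -0.08 without KO3. The median dispersion of these 4, the squared variation between replicates, was 0.790, against 0.123 for the 4177 genes of the same expression range and 0.0389 over all tested genes. It was 0.259 without WT3, over 3 members tested, and 2.81 without WT1, over 18, so that the value depends on the library left out and on the members that then pass the filter.

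Constant region genes, which each V segment is spliced to, fell into 2 patterns. Ighm, the IgM heavy chain, was at 630, 595 and 580 CPM with WT Tconv and 665, 586 and 684 CPM with HP1α KO Tconv, many times the heavy V total in each library. Ighd, the IgD heavy chain, was likewise even, at 3.41 to 4.72 CPM, as was the J segment Ighj1, at 4.80 to 6.43 CPM. These did not follow the V totals. Heavy V counts per 100 counts of heavy constant genes were 0.403, 0.230 and 4.87, and 0.991, 0.104 and 0.346.

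Among the other antibody genes, some were highest in the libraries with the most V counts. Ighg2c, an IgG heavy chain, was at 1.95, 0.0608 and 24.4 CPM with WT Tconv and 4.99, 0.257 and 0.286 CPM with HP1α KO Tconv. Jchain, which links antibody polymers, was at 0.945, 0.345 and 10.4 CPM, and 2.88, 0.473 and 0.812 CPM. Igha, the IgA heavy chain, was at 0.696, 0.649 and 5.01 CPM, and 2.82, 0.535 and 0.297 CPM. In these 3, WT3 was the highest and KO1 the next. Ighg3, another IgG heavy chain, was nearly even, at 0.789, 1.44 and 1.77 CPM, and 1.08, 0.946 and 1.08 CPM. Ighg1 had 423 counts in WT3 and at most 10 elsewhere. Igkc, the kappa constant gene, was at 17.2, 14.8 and 51.7 CPM, and 21.4, 12.8 and 14.5 CPM, so that kappa V counts per 100 Igkc counts ran from 3.69 in WT2 to 54.0 in WT3.

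Recombination genes did not move together. Rag1, of the recombinase, was at 5.68 to 7.41 CPM, whereas Dntt, which adds bases at the joints, had 0, 0 and 29 counts, and 5, 1 and 10. Of the constant, J and D, recombination and switch genes, 26 were tested by edgeR and 0 had an adjusted p under 0.05, Jchain at -1.53 (SE 1.56, edgeR adjusted p = 0.701) and Ighm at 0.06 (SE 0.08, edgeR adjusted p = 0.757) on the log2 scale.

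The defining B cell marker Ms4a1 (CD20) was under 1 CPM in all libraries but WT3. It was at 0.260, 0.172 and 2.48 CPM with WT Tconv and 0.518, 0.0617 and 0.641 CPM with HP1α KO Tconv. Over the 14 genes of the B cell list, 10 were highest in WT3, and the sum, most of it from Cd22, Cd72 and Cd79b, ran from 44.0 to 59.3 CPM. Of the 10 plasma cell genes, 5 were highest in WT3, and their sum, mostly from Xbp1, Prdm1 and Txndc5, which T cells also express, ran from 288 to 340 CPM. Tnfrsf17 (BCMA) had 8 counts in WT3 and 0 elsewhere, Mzb1 was at 0.899 CPM in WT3 and at most 0.239 elsewhere, and Sdc1 (syndecan-1) was at 0.297 to 0.613 CPM. Derl3, of the same list, was highest in KO1 (0.716 CPM) and at 0.319 CPM in WT3, and Txndc5 was lowest in WT3.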

How the data were processed

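Total RNA was sequenced as stranded paired-end libraries, 3 per group. Per the labels and the study's methods, the authors aligned reads with STAR to GRCm39 and deposited estimated counts per gene from Salmon, as whole numbers. Estimated counts share ambiguous reads between near-identical V segments by a model. B6D2F1 cells carry DBA/2 alleles, and how their reads map to the B6 reference was not tested. Members and gene lists were chosen with earlier results of these data known. CPM used library totals without TMM. Counts were tested on the whole table with edgeR version 4.0.16 in R version 4.3.3 (glmQLFit with robust estimation, TMM, filterByExpr, group as the sole term), with Benjamini-Hochberg adjustment, and DESeq2 version 1.42.0 as an alternative. The fit was tested on simulated data. Named members were the 10 with the highest mean CPM, the leader of each locus in each library, up to 5 heavy and 5 kappa segments most raised in 1 library (at least 100 counts there) and the tested members with the smallest p-values. The further segments named as high in 1 library, and Ighv3-2, were chosen after their values were seen. Shares are of counts. The annotated exons of a member summed to 347 to 730 bases, with bases of overlapping exons counted more than once, so this sum can exceed the spliced length. Per base of this summed length, the leader was the same in 17 of 18 library and locus pairs. All 95 members matched GENCODE M39 by identifier. No column was left unused. The values of some listed genes are not reported here.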

Additional observations from a re-analysis of the deposited data

How the results depend on the processing

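Alternatives comprised DESeq2, other normalization, filters, member minimums, thinning, families and leaving out each library. Over 176 alternative values of 19 results, 159 kept their direction and call or moved by less than the spread between replicates, 15 moved further and 2 reversed. Only log2 fold changes could be counted as reversed. Sign changes of totals, shares and evenness that stayed within that spread are among the 159. No member was called by any of them. DESeq2 gave an adjusted p to 0 members, so it could call none, and the fits with other normalization and with the replicate block tested only 4 members. A filter of at least 10 counts in every library left 0 members, so it gave no value. The ratio of the members' median dispersion to that of all genes was 20.3, and 6.96 with the coefficient of variation, and ranged from 10.3 to 60.6 when 1 library was left out, which also changed the members tested, from 3 to 20. With 1 library left out, the log2 fold change of Ighv1-54 ranged from -1.11 to 0.26 (without WT2) and that of Iglv1 from -4.02 to 0.45 (without WT3). The cause was not tested. Deviations of libraries with the same replicate number correlated at -0.04, 0.18 and 0.12, so the numbers were not taken as pairs; with the replicate block 0 of 4 tested members and 1 of 18321 genes were called. Leaving out WT3 changed the sign of the differences in V total and, for heavy and kappa segments, in evenness and leading share. The heavy difference in leading share ranged from -10.4 (without KO3) to 9.04 percentage points (without KO2) when 1 library was left out. The kappa difference ranged from -8.04 (without KO3) to 11.7 (without WT2), and was -1.08 without WT1. For heavy evenness the difference ranged from -0.130 (without WT2) to 0.0338 (without WT3), and was -0.0172 without KO3. For kappa evenness it ranged from -0.100 (without WT2) to 0.0615 (without WT3), and was 0.0363 without KO3. The Morisita and length alternatives were chosen after seeing the data. At 60 heavy or 54 kappa counts in the lowest library, segments of low usage were not detectable there.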

Other observations

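Kappa V segments lie on both strands of the locus, so that joining them to a J segment deletes or inverts the DNA between. Of the 38 kappa members, 22 are on the minus strand. Their share of the kappa counts was 47.1, 79.6 and 32.0% in WT1, WT2 and WT3, and 72.5, 17.4 and 11.4% in KO1, KO2 and KO3. The leading kappa segments of WT2 and KO1, Igkv4-59 and Igkv4-55, are on the minus strand, and those of the other libraries are on the plus strand. The annotated pseudogene Ighv3-2 had 61 counts in WT3, 66 in KO1 and 0 in the other libraries.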
